A study of Mus musculus with 4 samples.

Results

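Integrin and laminin subunits were examined on 4 arrays of cultured mouse mammary cells. A gene belonged to the set if a probe set on the array carried its symbol alone and the symbol named an integrin alpha chain, an integrin beta chain or a laminin chain. This gave 34 genes, 16 integrin alpha, 8 integrin beta and 10 laminin, out of 18193 genes represented on the array. Each gene was read at the probe set with the highest mean over the 4 arrays, and the other probe sets of the same genes, 73 in all, were used to see whether they moved alike. A probe set is a group of short oligonucleotides that together read a transcript. Values are RMA expression on a log2 scale, on which a difference of 1 is a doubling of signal.

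The cells came from Deaf-1-/- mammary glands and were immortalised with a retrovirus encoding the HPV16 E6/E7 proteins, so all arrays share the Deaf-1 deletion and the viral proteins. The results of the study name a single mouse as their source, by which both clones would come from the same animal. The methods speak of female mice of 8 weeks, in the plural. RNA was taken at the time-point of 48 hours of puromycin selection, from clones named E1 and C1, each transduced with a retrovirus encoding Deaf-1 or with an empty control retrovirus. There was 1 array for each clone with each retrovirus, hence 2 arrays per clone and 2 per retrovirus. The array labels give the clone only by the letter e or c, which were read as E1 and C1, the clones named in the protocol. Each clone is a single cell line, and arrays of a clone are not separate animals, so p-values here measure only the spread between these arrays.

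Laminins are trimers of an alpha, a beta and a gamma chain that form a sheet in the basement membrane, the thin matrix on which mammary epithelium rests. Integrins are cell surface receptors made of an alpha and a beta chain, and which pair a cell carries decides whether it holds laminin, collagen or fibronectin. In the mammary gland the receptors for laminin anchor the basal cells and help maintain polarity and milk protein synthesis, and a hemidesmosome holds the alpha6-beta4 pair on the laminin made of the alpha3, beta3 and gamma2 chains.

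The arrays were alike in range, with medians between 3.77 and 3.87 and between 49.2% and 50.8% of probe sets above a background level of 3.83. Olfactory receptor genes set that level, as the 95th percentile of the means of their 44 probe sets. Deaf1 itself read 6.25 in E1 and 6.73 in C1 with the Deaf-1 retrovirus, against 4.91 in E1 and 5.01 in C1 with the control retrovirus. The Deaf-1 arrays were higher in both clones (difference 1.53, standard error 0.21, unadjusted p 0.00123 and adjusted p 1 from limma).

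The epithelial label of the cells was compared with marker genes. Each marker was read at its probe set with the highest mean over the arrays, and other probe sets were not compared. For Epcam and Krt8 that probe set was of the _x_at type, which an alternative run for the subunit genes left out. Of 11 luminal and general epithelial markers, 4 lay above background on all arrays, Epcam (5.81 to 6.33), Cldn3 (5.19 to 5.88), Krt19 (4.37 to 4.64) and Elf3 (4.24 to 4.95). The keratin genes Krt8 and Krt7 lay above it in E1 alone, with Krt8 at 4.01 with Deaf-1 and 3.84 with control. The other 5 were below background on every array, among them Krt18, a luminal keratin, and Cdh1, which encodes E-cadherin and read 2.42 and 2.34 in E1 (Deaf-1 and control retrovirus) and 2.28 and 2.22 in C1 (Deaf-1 and control retrovirus). Of 8 basal and myoepithelial markers, 4 lay above background on all arrays and 3 on none. Krt5 (4.45 to 4.74) and Trp63 (3.87 to 4.43), a keratin and a transcription factor of basal cells, were above it by less than 1, Cnn1 and Acta2, contractile genes of smooth muscle, read 6.14 to 7.81 and 11.46 to 11.83, and the basal keratin Krt14 was below it throughout. Of 10 fibroblast and mesenchymal markers, 9 lay above background on all arrays, and Col1a1, Col3a1 and Thy1 had their lowest values at 12.49, 13.38 and 10.98. The list medians ran from 2.86 to 4.01 for epithelial, from 3.74 to 4.26 for basal and from 10.95 to 11.24 for mesenchymal markers. Epithelial markers were thus mixed, with E-cadherin at background, and most mesenchymal markers were far above background in both clones. The part of this profile in the values below was not tested.

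**Figure D1:**
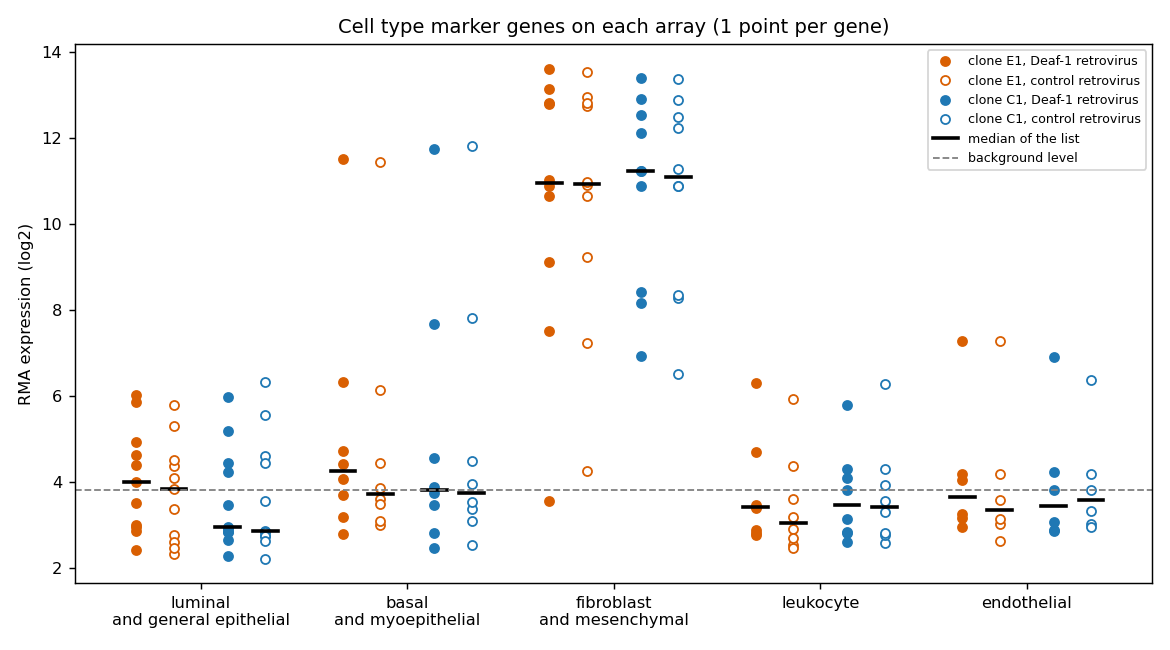
RMA expression (log2, vertical axis) of cell type marker genes, 1 point per gene and array, for clone E1 in orange and clone C1 in blue, with filled points for the Deaf-1 and open points for the control retrovirus, black bars for the median of a list and a dashed line for the background level of 3.83. The mesenchymal medians lie at 10.95 to 11.24, while the epithelial medians lie between 2.86 and 4.01.

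Of the 34 subunit genes, 20 lay above background in the mean of at least 1 clone, 8 integrin alpha, 5 integrin beta and 7 laminin genes. On all 4 arrays 19 of them were above it. The exception was Lama1, which was above background in clone E1 alone. The other 14 genes lay below background in both clones, with values between 2.14 and 3.87. They comprised Itga2 and Itga10, chains of collagen receptors, Itga4 and Itga8, the leukocyte chains Itgae, Itgal, Itgam, Itgax and Itgb2, the epithelial chains Itgb6 and Itgb8, and the laminin genes Lama3, Lamb3 and Lamc3. Lama3 and Lamb3 encode chains of the epithelial laminin of hemidesmosomes. Itga2 was above background on 1 array, that of C1 with the control retrovirus (3.87), and the remaining 13 on none. A probe set at background cannot tell an unexpressed gene from one it reads poorly. Nor does a value above background by itself show expression. With the control retrovirus Deaf1 read 4.91 in E1 and 5.01 in C1, though the cells carried the Deaf-1 deletion, and the leukocyte marker Cd3e read 4.32 to 4.71. Whether members at such values, Itgb4 and Itga9 among them, are expressed was not tested.

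**Figure D2:**
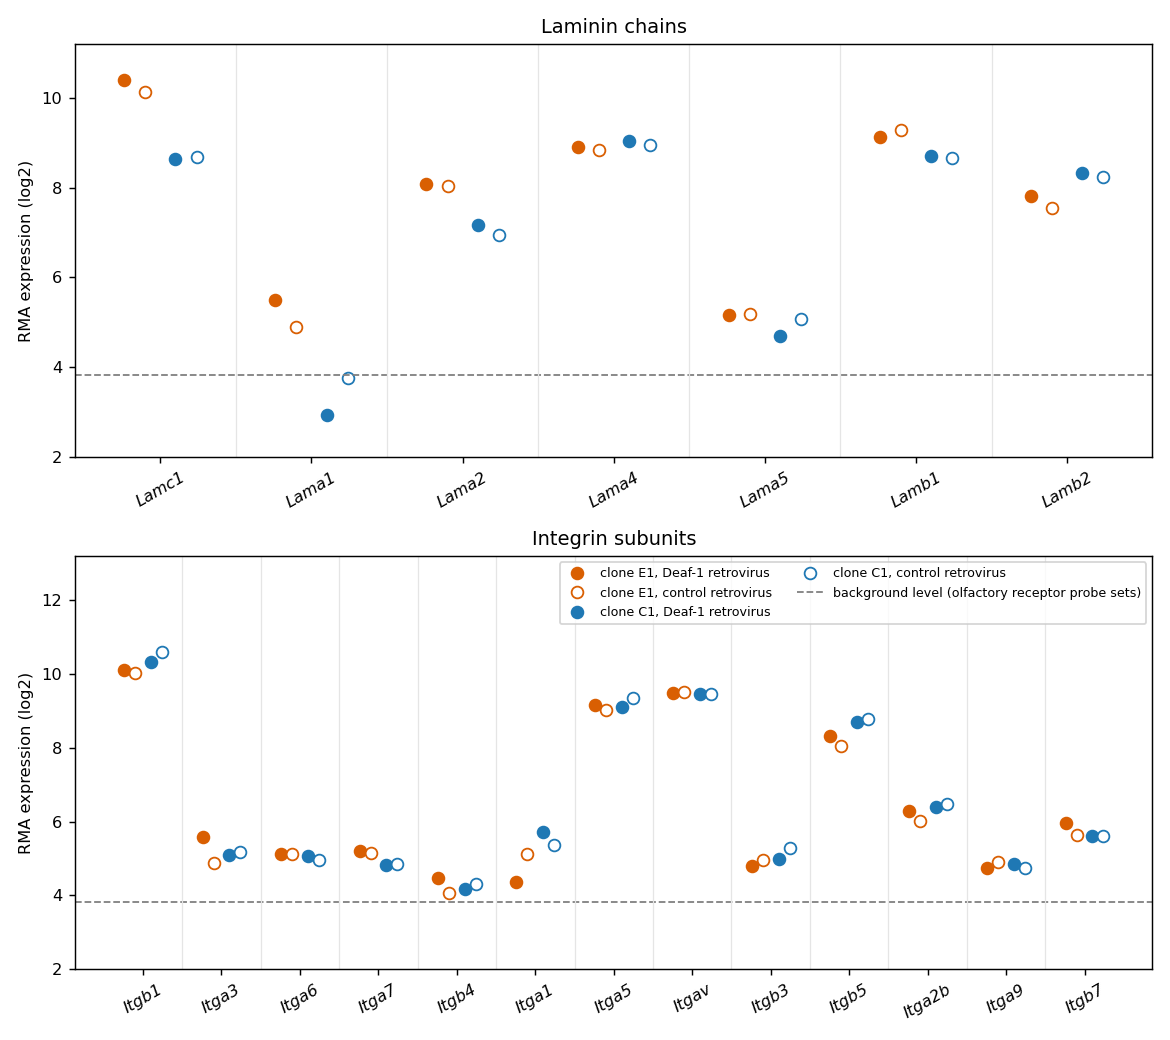
RMA expression (log2, vertical axis) of the 7 laminin (top) and 13 integrin genes (bottom) above background in a clone, 1 point per array, with clone E1 in orange, clone C1 in blue, filled points for the Deaf-1 and open points for the control retrovirus. The orange and blue points of Lamc1, Lama1 and Lama2 lie apart, Lamb2 and Itgb5 are lower in E1, and Itgav lies between 9.47 and 9.51 on every array.

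The first comparison asked how far the clones differed in these genes. Clone E1 was compared with clone C1 by limma with the retrovirus as a block, and a gene was called at an unadjusted p under 0.01, the threshold of the study. Of all 45037 probe sets 5.38% were called, 2.55% higher and 2.83% lower in E1. Of the 34 subunit genes 3 were called (8.82%), all higher in E1 and all laminin chains, and of the 16 alpha and 8 beta integrin genes none was. At an unadjusted p under 0.05 there were 6, the 3 called and Lamb1, Lamb2 and Itgb5. No subunit gene had an adjusted p under 0.05, which 0.109% of all probe sets had. In 20 of the 34 genes (58.8%) both arrays of a clone lay above both of the other, and this held for 47.1% of all probe sets. Of the subunit genes above background in a clone, 15% were called and in 80% the clones did not overlap. Of all probe sets above background, 10.1% were called and in 60.3% the clones did not overlap. The median difference was 0.032 over the 34 genes and 0.0045 over all probe sets, and the median size of the difference was 0.235 over the 34 genes and 0.165 over all probe sets.

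Lamc1 encodes laminin gamma1, the gamma chain of most laminins. It read 10.40 with Deaf-1 and 10.14 with control in clone E1, against 8.64 with Deaf-1 and 8.69 with control in clone C1. Every E1 value exceeded every C1 value by more than 1.4, while arrays of a clone differed by at most 0.26. The E1 minus C1 difference was 1.60 (standard error 0.16), a 3.04-fold higher signal in E1, with an unadjusted p of 0.00044 and an adjusted p of 0.0789 from limma. A second probe set of the gene read 8.61 and 8.41 in E1 (Deaf-1 and control retrovirus) and 6.66 and 6.71 in C1 (Deaf-1 and control retrovirus), a difference of 1.82. In arrays of whole cultures, more cells that express a gene and more RNA per cell cannot be told apart.

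Lama2 encodes laminin alpha2, the chain of the laminin of muscle and of some mesenchymal cells. It read 8.08 with Deaf-1 and 8.03 with control in E1, against 7.17 with Deaf-1 and 6.95 with control in C1. The clones did not overlap. The difference of 0.99 (standard error 0.15, 1.99-fold) had an unadjusted p of 0.00216 and an adjusted p of 0.123 from limma.

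Lama1, which encodes the alpha chain of the first laminin described in embryos and in basement membranes of glands, read 5.49 with Deaf-1 and 4.90 with control in E1. In C1 it read 2.94 with Deaf-1 and 3.77 with control, both below background. The difference of 1.84 (standard error 0.37, unadjusted p 0.00679 and adjusted p 0.161 from limma) therefore sets a measured level against background. It was 2.55 between the Deaf-1 arrays and 1.14 between the control arrays. Lama1 was no longer called without the Deaf-1 array of C1 (difference 1.43) or without that of E1 (1.55), whereas Lamc1 and Lama2 were called whichever array was left out.

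The beta chains that pair with these alpha and gamma chains had differences of opposite sign. Lamb1, which encodes the beta1 chain, read 9.12 with Deaf-1 and 9.28 with control in E1, against 8.70 with Deaf-1 and 8.67 with control in C1, a difference of 0.52 (standard error 0.15, unadjusted p 0.0237 and adjusted p 0.254 from limma). Its other probe sets above background gave 0.51 and 0.67. Lamb2, which encodes the beta2 chain of the neuromuscular junction and the kidney filter, read 7.81 with Deaf-1 and 7.55 with control in E1, against 8.33 with Deaf-1 and 8.23 with control in C1. Its difference was -0.60 (standard error 0.15, unadjusted p 0.0139 and adjusted p 0.207 from limma). For both genes the arrays of the clones did not overlap, but neither passed the threshold. With the arrays of a clone as plain replicates, without the block, Lamb1 (unadjusted p 0.00717), Lamb2 (0.00616) and Itgb5 (0.00753) passed as well. Without the Deaf-1 array of E1, Lamb2 and Itgb5 passed, with differences of -0.72 and -0.68.

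The remaining laminin alpha chains showed smaller differences. Lama4, the chain of blood vessel and mesenchymal laminins, read 8.90 with Deaf-1 and 8.83 with control in E1, against 9.04 with Deaf-1 and 8.95 with control in C1. Its difference was -0.13, with a 95% interval from -0.52 to 0.26, and the second probe set gave -0.0035. Lama5, a chain widespread in epithelial basement membranes, read 5.16 with Deaf-1 and 5.18 with control in E1, against 4.70 with Deaf-1 and 5.07 with control in C1, and its difference of 0.28 had an interval from -0.17 to 0.73. For both genes the clones did not overlap, and the differences did not exceed their errors at the threshold used.

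Upstream sequence is given for the called chain Lama2 and for the beta chains Lamb1 and Lamb2, which were not called and whose differences had opposite signs, to show the regions before a called chain and before the beta chains. Each is the 250 bases before the annotated start of RefSeq, in build GRCm38.p6, read along the strand of the gene. Members' windows on a single chromosome were left out. The windows used covered 22 of the 34 genes, and Lamc1 and Lama1 were not among them. Capitals mark the letters TTCG, a motif bound by DEAF-1, or CGAA, the same on the other strand.
Lama2, chr10:27616943-27617192, minus strand: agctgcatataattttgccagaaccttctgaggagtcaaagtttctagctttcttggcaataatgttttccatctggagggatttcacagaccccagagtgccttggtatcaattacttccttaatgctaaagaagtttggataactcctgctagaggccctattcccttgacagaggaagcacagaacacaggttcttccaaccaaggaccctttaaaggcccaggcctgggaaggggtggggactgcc
Lamb1, chr12:31265043-31265292, plus strand: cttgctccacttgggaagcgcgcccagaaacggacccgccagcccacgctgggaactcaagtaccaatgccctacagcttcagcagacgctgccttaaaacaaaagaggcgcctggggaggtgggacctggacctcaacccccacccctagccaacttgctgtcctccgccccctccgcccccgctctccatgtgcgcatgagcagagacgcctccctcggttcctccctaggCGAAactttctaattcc
Lamb2, chr9:108479612-108479861, plus strand: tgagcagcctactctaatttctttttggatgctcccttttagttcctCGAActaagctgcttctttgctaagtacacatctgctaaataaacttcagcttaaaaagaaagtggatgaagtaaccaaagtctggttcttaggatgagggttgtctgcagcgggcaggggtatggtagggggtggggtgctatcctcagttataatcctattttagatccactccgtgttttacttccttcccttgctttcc

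The motif occurs once each in the windows of Lamb1 and Lamb2 and not in that of Lama2. Among windows of the 22 genes, 12 of 25 held it, and among 32851 windows of all genes, with no chromosome left out, 38.7% did. The Lamb1 window also holds the GC box GGGCGG, on either strand, at 2 places and the letters CCAAT at 1, and its GC content is 62.0%, against 47.2% in that of Lama2 and 43.6% in that of Lamb2. GGGCGG is present in 32.7% and CCAAT in 33.9% of all windows. These are matches of letters and are not evidence of binding.

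No integrin gene was called between the clones. Itgb1, the beta1 chain shared by most receptors for matrix, read 10.12 with Deaf-1 and 10.02 with control in E1, against 10.32 with Deaf-1 and 10.59 with control in C1. The E1 values were lower, by 0.38 on average (difference -0.38, standard error 0.17, adjusted p 0.419 from limma). The other Itgb1 probe sets above background gave -0.18 and -0.14.

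The alpha chains of the laminin receptors and Itgb4 read between 4.08 and 5.57 in both clones, and none was called. Itga6, whose chain pairs with beta1 or beta4, read 5.13 with Deaf-1 and 5.13 with control in E1, against 5.06 with Deaf-1 and 4.97 with control in C1, a difference of 0.12 (95% interval -0.28 to 0.51). The second Itga6 probe set read 3.64 to 3.98, around background. Itgb4, the partner of alpha6 in hemidesmosomes, read 4.47 with Deaf-1 and 4.08 with control in E1, against 4.17 with Deaf-1 and 4.32 with control in C1, close to background and overlapping between the clones. Its difference was 0.029 (95% interval -0.50 to 0.56). Itga3 read 5.57 with Deaf-1 and 4.89 with control in E1, against 5.10 with Deaf-1 and 5.17 with control in C1. Its arrays overlapped too, and the sign of its difference of 0.095 turned at other probe sets (-0.20 and -0.019). Itga7, the laminin receptor chain of muscle, read 5.20 with Deaf-1 and 5.16 with control in E1, against 4.83 with Deaf-1 and 4.84 with control in C1, a difference of 0.34 (95% interval -0.05 to 0.73).

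Among alpha chains of collagen receptors only Itga1 was above background. It read 4.37 with Deaf-1 and 5.13 with control in E1, against 5.73 with Deaf-1 and 5.37 with control in C1. Its difference of -0.80 (standard error 0.31, adjusted p 0.365 from limma) was the most negative of the integrin genes, but the E1 arrays themselves lay 0.76 apart. Without the control array of E1 it was -1.18 and passed the threshold. Between the control arrays alone it was -0.24. The second Itga1 probe set was below background on every array (2.60 to 3.03).

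Chains of receptors for fibronectin and vitronectin gave differences between -0.61 and 0.44 over all their probe sets above background. Itgav, the alphav chain, read 9.49 with Deaf-1 and 9.51 with control in E1, against 9.47 with Deaf-1 and 9.47 with control in C1, a difference of 0.034 with an interval from -0.35 to 0.42. Its other probe sets above background gave 0.44 and 0.43, so the reading depended on the probe set. Itga5, the chain of the main fibronectin receptor, read 9.17 with Deaf-1 and 9.03 with control in E1, against 9.11 with Deaf-1 and 9.35 with control in C1, and the clones overlapped, with a difference of -0.13 (95% interval -0.59 to 0.34). Itgb5, a partner of alphav that binds vitronectin, read 8.31 with Deaf-1 and 8.06 with control in E1, against 8.71 with Deaf-1 and 8.78 with control in C1. Its difference of -0.56 (standard error 0.16, unadjusted p 0.0237 and adjusted p 0.254 from limma) was close at its 3 other probe sets, which gave -0.49, -0.59 and -0.58. Itgb3, another partner of alphav, read 4.79 with Deaf-1 and 4.95 with control in E1, against 4.998 with Deaf-1 and 5.28 with control in C1. That is a difference of -0.27, and a second probe set gave -0.61.

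Itga2b and Itgb7, chains best known from blood cells, and Itga9 read above background at modest values. Itga2b and Itgb7 were each read by 1 probe set, and whether such a signal means expression was not tested. Itga2b, the platelet chain that pairs with beta3, read 6.28 with Deaf-1 and 6.02 with control in E1, against 6.41 with Deaf-1 and 6.47 with control in C1. Itgb7, a lymphocyte chain, read 5.96 with Deaf-1 and 5.63 with control in E1, against 5.61 with Deaf-1 and 5.62 with control in C1. Itga9, a receptor chain for tenascin, read 4.74 with Deaf-1 and 4.90 with control in E1, against 4.86 with Deaf-1 and 4.73 with control in C1. The differences were -0.29 for Itga2b (95% interval -0.73 to 0.15), 0.18 for Itgb7 (-0.27 to 0.62) and 0.030 for Itga9 (-0.40 to 0.46), and none passed the threshold. Of 8 leukocyte markers measured, 5 were below background on all arrays, Ptprc (CD45) among them, Csf1r (5.81 to 6.30) and Cd3e (4.32 to 4.71) were above it on all, and Cd53 was above it in C1 alone (4.10 with Deaf-1 and 3.95 with control).

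**Figure D3:**
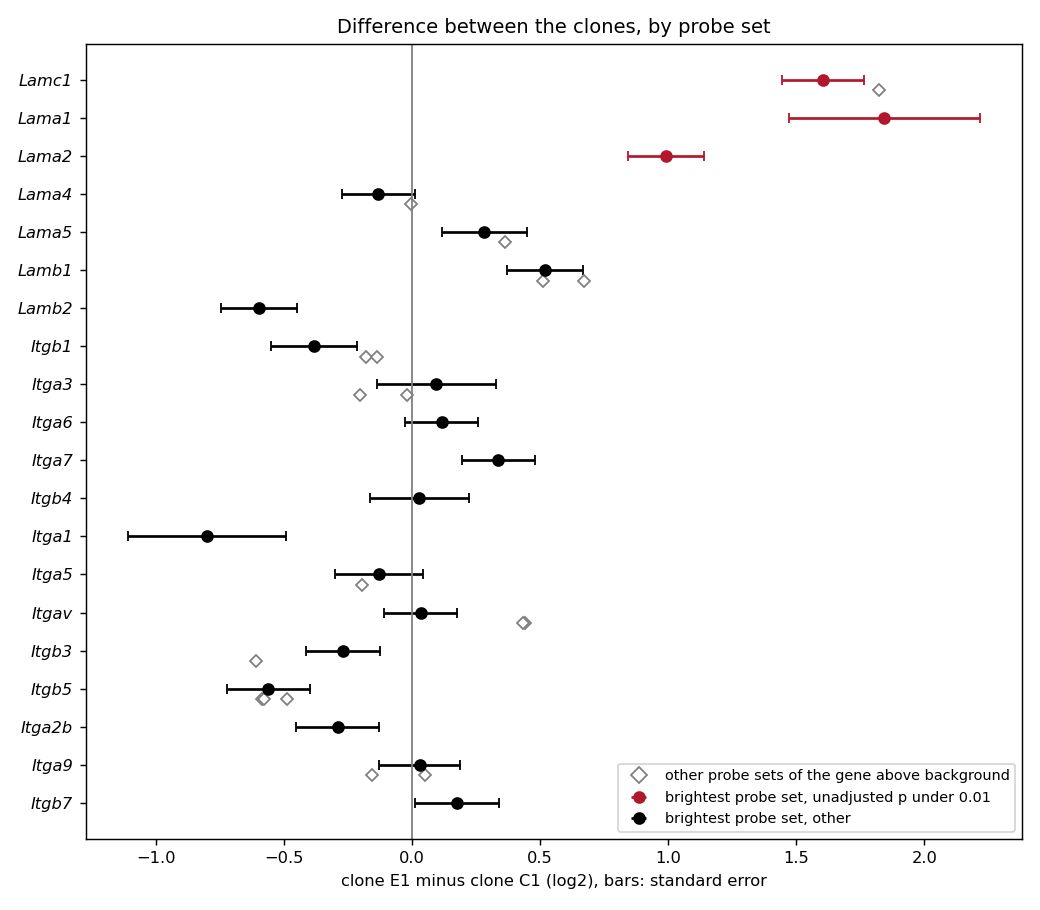
Difference between the clones (E1 minus C1, log2, horizontal axis) for the 20 subunit genes above background in a clone, with circles for the probe set with the highest mean, red where the unadjusted p was under 0.01, bars for the standard error of limma, and diamonds for other probe sets of the gene above background. Lamc1, Lama1 and Lama2 stand at 0.99 to 1.84, and the 4 probe sets of Itgb5 lie between -0.49 and -0.59.

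Of the 20 genes, 11 had more than 1 probe set above background. For Lamc1, Lamb1, Lama5, Itgb5, Itgb3, Itgb1 and Itga5 all such probe sets gave the same sign, as did those of Itgav and Lama4, although of different size. For Itga3 and Itga9 the signs were mixed, and their differences were small.

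Genes that work beside these subunits were read from 3 lists. Of 19 measured adaptors of focal adhesions, 2 were called higher and 2 lower in E1. Of these adaptors 18 were above background on all arrays, and 10.1% of all probe sets above background were called. Parva, which encodes parvin, a partner of integrin-linked kinase, differed by 1.05 (standard error 0.16), Zyx, which encodes zyxin of actin bundles, by -0.93 and Lims1, which encodes the adaptor PINCH, by -0.90. Among 6 hemidesmosome and tetraspanin genes 1 was called, lower in E1. This was Cd151, whose tetraspanin binds the laminin receptors of the beta1 and beta4 type, with 8.11 with Deaf-1 and 8.26 with control in E1, against 9.92 with Deaf-1 and 9.93 with control in C1. Its difference of -1.74 (standard error 0.15, adjusted p 0.0625 from limma) separated the clones by far more than the arrays of each clone differed. Cd151 was read at a probe set of the _x_at type, and no other probe set of the gene was compared. Cd81, another tetraspanin, differed by 0.58 and did not pass, and neither did Dst, which encodes a hemidesmosome linker, with 0.26.

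Of 8 partners of laminin in basement membranes, all above background, 1 was called higher and 2 lower in E1, beside the 10.1% of probe sets above background called in either direction. Nid1 encodes nidogen-1, which binds the laminin gamma1 chain and links it to type IV collagen. It read 10.68 with Deaf-1 and 10.69 with control in E1, against 9.92 with Deaf-1 and 10.08 with control in C1, a difference of 0.69 (standard error 0.15, adjusted p 0.176 from limma). Nid2, which encodes the related nidogen-2, read 6.65 with Deaf-1 and 6.81 with control in E1, against 7.74 with Deaf-1 and 7.63 with control in C1, a difference of -0.95. Ntn4, a laminin-related netrin, differed by -0.72. Some markers of cell types were also called between the clones. Of 10 mesenchymal markers, 1 was called higher and 2 lower in E1. Of 11 epithelial markers, 1 was called higher, and of 8 basal and 8 leukocyte markers, 1 each was called lower. Of 6 endothelial markers, 0 were called. The share called in either direction was 5.38% of all probe sets and 10.1% of those above background. Lum, which encodes lumican of the stroma, differed by -2.82, Pdgfrb by 0.83, Cdh2 by -0.89, Cnn1, a smooth muscle gene, by -1.51, the luminal keratin Krt7 by 1.36 and the leukocyte gene Cd53 by -1.28. Krt7 was at background in C1, Cd53 was at background in E1, and Lum was at background on the Deaf-1 array of E1. The part of these differences in the laminin values was not tested.

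The second comparison was that of the study, cells given Deaf-1 against cells with the empty retrovirus. No subunit gene passed the test. Deaf-1 was compared with control by limma with the clones as replicates, and of all probe sets 0.0111% were called at an unadjusted p under 0.01, Deaf1 among them. The study lists more probe sets under this threshold than were called here, and a smaller p for Deaf1. The fit here therefore does not repeat its test exactly. Of the 34 subunit genes 0 were called, and 0 had an unadjusted p under 0.05, which 0.433% of all probe sets had. With clone as a block, 0 were called and 0 had an unadjusted p under 0.05. The differences lay between -0.22 and 0.39, with a median size of 0.092 over the 34 genes and 0.096 over all probe sets.

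The largest moderated t among genes above background on all arrays was that of Itga3, with a mean of 5.34 ± 0.33 with Deaf-1 and 5.03 ± 0.20 with control (SD, n = 2 clones each). The difference of 0.31 had a 95% interval from -0.30 to 0.91, and came from clone E1, where it was 0.68, against -0.07 in C1. At another Itga3 probe set it was -0.055. Itgb3 was lower with Deaf-1 in both clones, by 0.15 in E1 and 0.28 in C1, and its difference of -0.22 had an interval from -0.72 to 0.29. Lama5 gave -0.20 (-0.02 in E1 and -0.37 in C1) and Lamb2 gave 0.18 (0.25 in E1 and 0.10 in C1). Itgb7 gave 0.16 and Itgb4 gave 0.12, with intervals from -0.31 to 0.64 and from -0.38 to 0.62. The adjusted p from limma was 1 for each of these 6 genes. Leaving out the Deaf-1 array of C1 turned the sign for Lama5 (0.032) and Lamb2 (-0.084). Leaving out that of E1 turned it for Itgb4 (-0.028) and Itgb7 (-0.0082), and leaving out the control array of E1 turned it for Lamb2 (-0.16). Fits without 1 array compare unequal mixes of clones and carry the difference between them.

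The laminin genes that separated the clones did not pass the test for Deaf-1. For Lamc1 the change was 0.26 in E1 and -0.047 in C1, and for Lama2 it was 0.052 in E1 and 0.22 in C1. Lama1 gave 0.58 in E1 and -0.83 in C1, where both of its values were below background. Across the 34 genes the change had opposite signs in the clones in 23 (67.6%), as it had in 58.9% of all probe sets. In E1, 25 of the 34 genes read higher with Deaf-1, with a median change of 0.13, and in C1, 13 did, with a median of -0.053. Of those 25, 12 were below background in both clones, and the 13 others were among the 20 genes above it, whose median change in E1 was 0.081. Over all probe sets the medians were 0.0024 in E1, where 48.8% read lower with Deaf-1, and -0.011 in C1. Among probe sets above background the median in E1 was -0.067, and 61.0% read lower with Deaf-1. Both clones gave higher values with Deaf-1 for 7 genes and lower values for 3, and for Itga6 the E1 arrays held the same value.

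**Figure D4:**
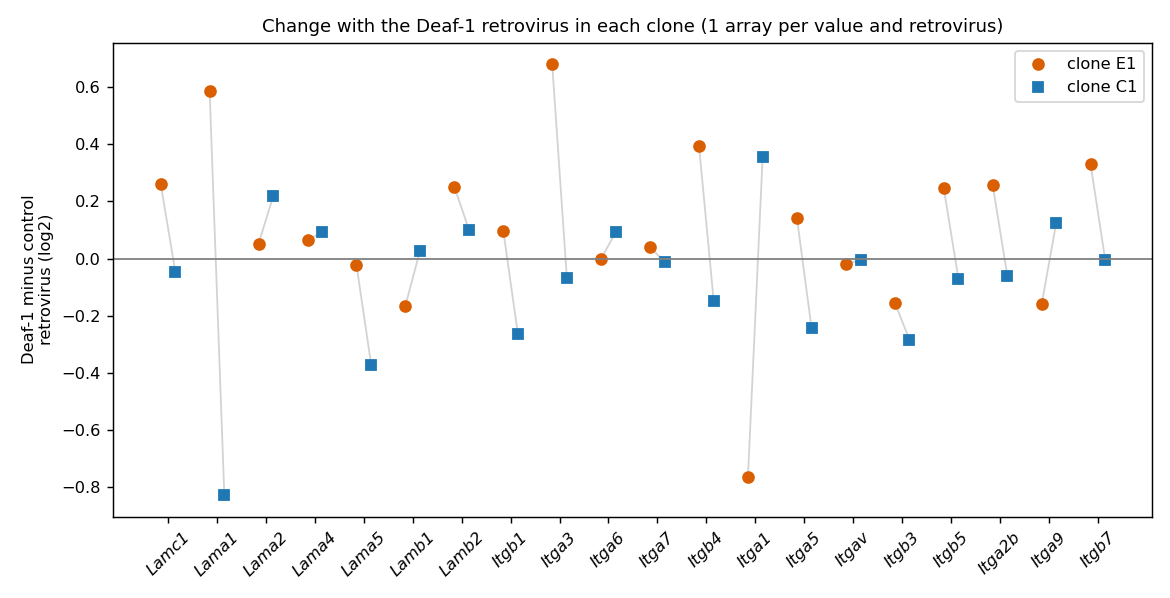
Change with the Deaf-1 retrovirus (Deaf-1 minus control, log2, vertical axis) in clone E1 (orange circles) and clone C1 (blue squares) for the 20 subunit genes above background in a clone, each value from 1 array per retrovirus. The points scatter around 0 between -0.83 and 0.68, and in 13 of the 20 genes the clones lie on opposite sides of it.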

How the data were processed

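RNA of 2 clones, each with the Deaf-1 or the control retrovirus, was hybridized to 4 Affymetrix mouse genome arrays. The log2 values deposited by the authors were made with RMA, which corrects background, equalizes arrays and summarizes each probe set. The submitters' processing notes name RMA and limma, without their versions. The number of arrays limits the precision, and raw scans were not used here.

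Of 45101 probe sets, 64 controls were left out and 45037 tested without a filter on low values. Of the probe sets tested, 34945 had 1 gene symbol, 932 had several and 9160 had none. All 34 members matched the RefSeq table by gene identifier and 0 symbols changed. Both contrasts were tested two-sided in limma 3.58.1 (lmFit, then eBayes; R 4.3.3), with Benjamini-Hochberg adjustment over all probe sets. Deaf-1 against control had 2 residual and 2.56 prior degrees of freedom. E1 against C1, with retrovirus as a block, had 1 and 3.21. Both retroviruses were used in the same clones, so clone pairs the arrays, and deviations of arrays of a clone correlated at 0.54. Clone as a block was an alternative for Deaf-1. The script was tested on simulated data.

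Named genes were those above background in a clone, the 6 with the largest t for Deaf-1, and up to 3 genes per list of partners. Marker genes of cell types were named after their values were seen. Members and lists were chosen with earlier results of these data known. Sequences came from RefSeq tables of build GRCm38.p6.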

Additional observations from a re-analysis of the deposited data

Results flagged for a closer look

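In 13 of the 20 subunit genes above background the change with Deaf-1 had opposite signs in the clones. Each clone gave 1 array per retrovirus, so this difference was not tested. The change in E1 minus that in C1 was 1.41 for Lama1, 0.75 for Itga3, 0.54 for Itgb4, 0.39 for Itga5, 0.36 for Itgb1, 0.33 for Itgb7, 0.32 for Itga2b, 0.32 for Itgb5, 0.31 for Lamc1 and 0.052 for Itga7. It was -1.12 for Itga1, -0.29 for Itga9 and -0.19 for Lamb1. Opposite signs were found in 62.9% of all probe sets above background.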

How the results depend on the processing

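Lamc1 and Lama2 were called higher in E1 under every alternative run, and Lama1 under each except those without the Deaf-1 array of a clone. The count of 3 called members became 6 without the retrovirus block and 6 with a prior variance that follows intensity, in both cases by adding Itgb5, Lamb1 and Lamb2, and ranged from 2 to 4 when each array was left out. With an array left out, retrovirus was dropped from the fit and the lone array was assumed to vary like the others. Over all probe sets the count for E1 against C1 was 2425, 4346 without the retrovirus block and 1514 to 2980 without an array. For Deaf-1 the 5 probe sets called became 11 with the replicate block of clone, 2 among probe sets above background, 25 with the intensity prior and 2 to 47 without an array, while the count of members stayed at 0 throughout. The replicate block changed no member's call.

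Signs were followed in the 20 genes above background for E1 minus C1 and in the 6 genes named for Deaf-1. Among these they turned only for differences that were not called. Itga3, with the largest t for Deaf-1 (difference 0.31), was among those that turned. For E1 minus C1, Itga3 gave -0.20 without _x_at and _s_at probe sets and -0.043 as a mean over its probe sets, for which Itga9 gave -0.025. Leaving out an array in turn gave -0.25 to 0.43 for Itga3, -0.17 to 0.23 for Itgb4 and -0.051 to 0.11 for Itga9. For Deaf-1 minus control, Itga3 gave -0.055 without _x_at and _s_at probe sets, and Lama5 gave 0.031 as a mean over its probe sets. Leaving out an array gave -0.42 to 0.032 for Lama5, -0.16 to 0.51 for Lamb2, -0.028 to 0.27 for Itgb4 and -0.0082 to 0.34 for Itgb7. For Deaf-1, fits with an array left out also carry the difference between the clones. The cause of the other turns of sign was not tested. Values near the background level of 3.83 limit what can be read for Lama1 in C1, Itgb4 and the 14 genes below it.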
